A study of Homo sapiens with 58 samples.

Results

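The genes described here are 9 regulators of the cell cycle and of p53 that are known as targets of the RNA-binding protein HuR: the cyclins CCND1, CCNE1, CCNA2 and CCNB1, the kinase CDK6, the CDK inhibitors CDKN1A and CDKN1B, the kinase WEE1 and the p53 ligase MDM2. Included were all HuR peaks that the table of combined peaks names for one of these genes, chosen by gene name and not by signal. The genes themselves were chosen with earlier results of these data known, which limits every comparison of their shares with those over all features. They comprised 171 of 387214 peaks and 8 of the 9 genes, since no peak carried the name CDKN1A, which was not analysed here. CDK6 had 70 peaks, MDM2 33, WEE1 23, CCND1 15, CDKN1B 15, CCNB1 8, CCNA2 6 and CCNE1 1.

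HuR, the product of ELAVL1, binds U-rich and AU-rich stretches of RNA in introns and 3'UTRs. It shuttles between nucleus and cytoplasm, and it is best known for stabilizing short-lived mRNAs, among them several that drive or restrain cell division. Cyclin D1 and CDK6 act together in G1, cyclin E1 at the G1/S transition, cyclin A2 in S phase and G2, and cyclin B1 at entry into mitosis. CDKN1B (p27) inhibits cyclin-CDK complexes, WEE1 holds back mitosis by phosphorylating CDK1, and MDM2 marks p53 for degradation and is itself a p53 target gene.

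HuR was measured by CLIP-seq, in which UV light crosslinks the protein to RNA and the immunoprecipitated fragments are sequenced, in 58 libraries of Huh-7.5, a human hepatocellular carcinoma line derived from Huh-7. Cells were mock treated or given sodium arsenite, which causes oxidative stress and stress granules, at 0.5 mM for 45 min. The fraction libraries came from wild-type cells separated into nuclear and cytoplasmic fractions, with no labelling reaction, and comprised 3 libraries for each fraction and treatment. The other libraries came from cells that express ascorbate peroxidase (APEX), which biotinylates proteins around it once biotin phenol and hydrogen peroxide are added, as a fusion to a nuclear localization signal (APEX-NLS), a nuclear export signal (APEX-NES) or the stress-granule protein G3BP1 (APEX-G3BP1). In enriched libraries the biotinylated material was captured on streptavidin, and in input libraries it was not. There were 2 input and 4 enriched libraries per treatment for NLS and likewise for NES. G3BP had 4 mock and 5 arsenite inputs, and 6 mock and 7 arsenite enriched libraries. Nothing in the labels says that replicates came from separate cultures, so the p-values measure the spread between these libraries, which may be technical.

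The fraction libraries held 686263 to 1759090 tags in all, of which the member peaks received 455 in nuclear mock, 1124 in nuclear arsenite, 1066 in cytoplasmic mock and 1547 in cytoplasmic arsenite libraries, summed over 3 each. Levels are given as tags per 1000000 library tags (CPM), and 3 tags, equal to 1.71 to 4.37 CPM, were taken as the smallest level a fraction library can show. All 12 fraction libraries belong to library set JL0380, as the prefix of the sample descriptions gives it, so fractionation and that set cannot be told apart. Of 10 hepatocyte markers 8 had peaks, with 9777 tags on AFP and 3000 on ALB in the fraction libraries, while APOA1 and TTR were at 0. PTPRC, a leukocyte marker, had 30 tags, PECAM1, an endothelial marker, 1, and COL1A1, a fibroblast marker, 0. Of the nuclear transcripts, NEAT1 averaged 417 CPM in nuclear and 125 in cytoplasmic mock libraries, but MALAT1 averaged 2535 and 2391, so the fractions differed little in tags on MALAT1. After arsenite NEAT1 averaged 536 CPM in nuclear and 232 in cytoplasmic libraries. A change in tags can reflect more or fewer transcripts or more or less HuR per transcript, and these cannot be told apart without RNA levels. A CPM also depends on what the rest of the library holds.

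HuR peaks on these genes lay in 3'UTRs more than peaks at large did. The 3'UTR class held 74 of the 171 peaks (43.3%, against 9.71% of all peaks) and introns 86 (50.3%, against 55.5%). The remainder were 5 in transposable elements, 4 in 5'UTRs, 1 in coding sequence and 1 in the non-coding RNA class. By tags the 3'UTR outweighed introns further, with 4859 tags against 1337 over all libraries. The median peak had 21 tags in 3'UTRs and 10 in introns, and the medians over all peaks were 16 and 10. The classes were not exclusive: 16 of the 74 3'UTR peaks, all 7 of WEE1 among them, also carried an intron label, and 31 of the 86 intron peaks carried a retained-intron label. Each peak is 20 nt long in GRCh38.p14 coordinates, printed as the table gives them, and whether it counts from 0 or 1 is not stated. Of the 171 peaks 167 lay inside the RefSeq span of their gene. The other 4 were all the intron peaks of CDKN1B.

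The genes differed in where HuR sat. CCND1 and MDM2 were bound mainly in the 3'UTR, with 1317 3'UTR and 13 intron tags for CCND1 and 754 and 134 for MDM2 in the fraction libraries. CCNA2 had 106 3'UTR tags, 4 in coding sequence and no intron peak. CDK6 was bound mainly in introns, with 48 intron peaks that held 454 tags in all and none more than 37, against 238 tags in 16 3'UTR peaks. WEE1 was intermediate, with 468 3'UTR, 324 intron and 39 5'UTR tags. CDKN1B had 131 3'UTR tags in 10 peaks, 68 tags in a single 5'UTR peak and 41 intron tags. All 41 lay in peaks upstream of its RefSeq span, so its intron sum holds no tag from inside the span. CCNB1 had 46 3'UTR and 14 intron tags. CCNE1 had a single 3'UTR peak with 3 tags, 2 in nuclear mock library 3 and 1 in nuclear arsenite library 1, and was at 0 in all 6 cytoplasmic libraries, so no comparison was possible for it.

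**Figure D1:**
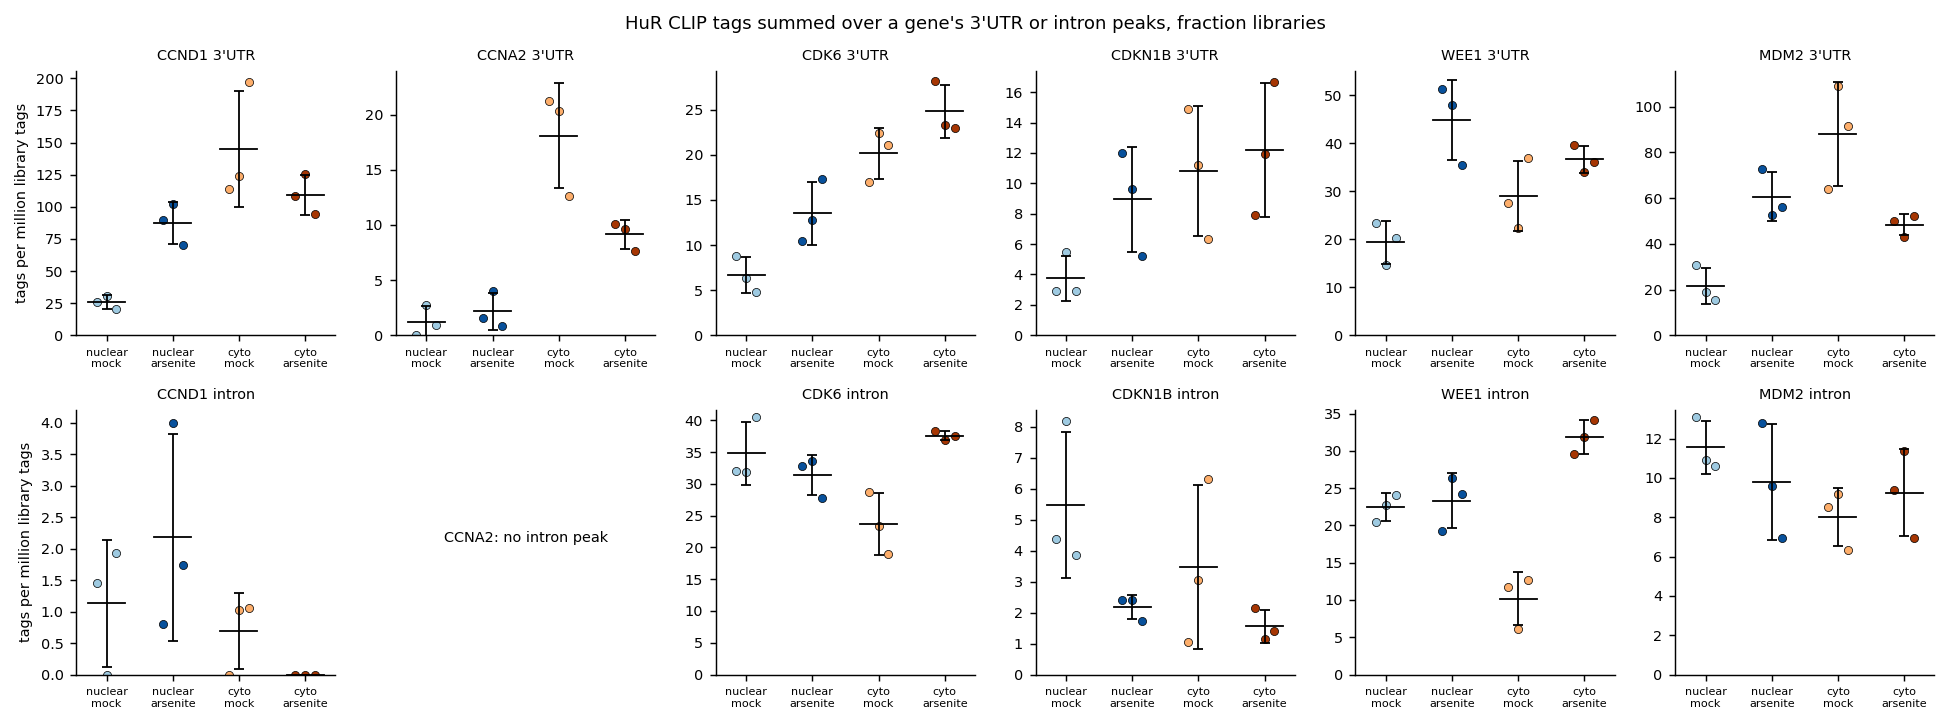
CPM summed over the 3'UTR peaks (top) and intron peaks (bottom) of 6 genes, for each of the 12 fraction libraries (points), with the mean and SD of 3 libraries per group. CCND1 3'UTR signal was 20.3 to 30.9 in nuclear mock libraries and at or above 70.2 in the other 9, and WEE1 intron signal was lowest in the cytoplasmic mock libraries, at 6.11 to 12.7.

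Nuclear and cytoplasmic fractions of mock-treated cells were compared to ask in which compartment HuR was found on these mRNAs. The 3'UTR signal of 5 genes, CCNA2, CCND1, MDM2, CDK6 and CDKN1B, was lower in the nuclear than in the cytoplasmic fraction, and the intron signal of WEE1 was higher in the nuclear fraction. These were 6 of 18 tested class sums at an adjusted p under 0.05 (limma, Benjamini-Hochberg over all 27489 sums, two-sided), where the same call was made for 27.4% of all sums. Within the 3'UTR class 5 of 7 member sums were lower, and 47% of 7282 such sums were. The median difference of the 7 was -1.35 on the log2(CPM + 2.28) scale, against -0.77 for all 3'UTR sums. Within introns 1 of 6 member sums was higher, against 26.5% of all, with medians of 0.46 and 0.38. With TMM scaling, which moved the median of all sums by -0.10, 36.5% of all calls were higher in the nuclear fraction in place of 46.9%, and the members had 1 higher and 6 lower, where 20.8% of all sums were called.

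CCND1, the largest signal of the group, had 3'UTR levels of 26.2, 30.9 and 20.3 CPM in the nuclear mock libraries and 114, 124 and 197 in the cytoplasmic mock libraries. Every cytoplasmic library was above every nuclear one, and the log2 difference was -2.37 ± 0.18 (SE, n = 3 each, limma adjusted p 8.31e-19). The gene lies on the plus strand of chr11:69641156-69654474 (RefSeq, GRCh38.p14), and 1 of its 11 3'UTR peaks, chr11:69653436-69653456, 1018 nt before the gene's end, held 949 of the 1317 3'UTR tags (72.1%). That peak had 17.5, 25.5 and 13.5 CPM in nuclear and 83, 83.5 and 139 in cytoplasmic mock libraries (log2 difference -2.30 ± 0.19, SE, limma adjusted p 5.02e-20). A second peak, 1109 nt before the end, held 13.1% of the tags and was also lower in the nuclear fraction, by -2.41 on the log2 scale (limma adjusted p 5.26e-07). Without the highest peak the sum of the other 10 still differed by -2.27 (limma, called at an adjusted p under 0.05; a version added after the data were seen).

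CCNA2 had the largest fitted difference. Its 3'UTR sum was 0, 2.73 and 0.966 CPM in the nuclear mock libraries, each at or below 3 tags, and 21.3, 20.4 and 12.7 in the cytoplasmic ones (log2 difference -2.58 ± 0.35, SE, limma adjusted p 4.26e-09). The peak chr4:121816987-121817007 on the minus strand, 544 nt before the gene's end, carried 50.9% of the 3'UTR tags and had at most 0.966 CPM in any nuclear mock library against 9.49 to 11.7 in the cytoplasmic ones (limma adjusted p 3.58e-06). CCNB1, the mitotic cyclin, was at 1.82 to 2.91 CPM in nuclear and 3.16 to 7.13 in cytoplasmic mock libraries (log2 difference -0.63 ± 0.37, SE, limma adjusted p 0.207), levels of only a few tags per library.

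MDM2 3'UTR signal was 30.6, 19.1 and 15.4 CPM in nuclear and 63.8, 109 and 91.7 in cytoplasmic mock libraries, with no overlap (log2 difference -1.93 ± 0.20, SE, limma adjusted p 1.18e-12). It was spread over 19 peaks, 5 of which were called lower one by one, and the highest held 27.3% of the tags. MDM2 intron signal was 10.6 to 13.1 CPM in nuclear and 6.33 to 9.17 in cytoplasmic mock libraries, which did not overlap either, but the log2 difference of 0.43 missed the threshold (limma adjusted p 0.296). CDK6 3'UTR signal went from 8.74, 6.36 and 4.83 CPM in nuclear to 17, 22.4 and 21.1 in cytoplasmic mock libraries (log2 difference -1.35 ± 0.26, SE, limma adjusted p 3.17e-05). Its introns ran the other way, at 31.8 to 40.6 CPM against 19 to 28.7, with a log2 difference of 0.52 ± 0.21 that missed the threshold (limma adjusted p 0.0583). It was called in 3 of 21 alternatives, when scaled to tags in peaks (0.65, limma adjusted p 0.0147), with a stricter filter (limma adjusted p 0.0235) and without cytoplasmic mock library 1 (0.66, limma adjusted p 0.0184).

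CDKN1B had 2.91, 5.46 and 2.9 CPM on its 3'UTR in nuclear and 14.9, 11.2 and 6.33 in cytoplasmic mock libraries (log2 difference -1.09 ± 0.32, SE, limma adjusted p 0.00641). Without cytoplasmic mock library 1 the difference was -0.86 and the call was lost (limma adjusted p 0.0623, the highest of its alternatives). The WEE1 3'UTR had 14.5 to 23.3 CPM in nuclear and 22.4 to 36.9 in cytoplasmic mock libraries, ranges that overlapped (log2 difference -0.53 ± 0.22, SE, limma adjusted p 0.0674). It missed the threshold here but was called lower in 4 of 21 alternatives: by edgeR with TMM (-0.75, adjusted p 0.0315), and by limma with a stricter filter, without nuclear mock library 1 and without cytoplasmic mock library 2 (limma adjusted p 0.0273 to 0.0376). Its introns had 20.4, 22.7 and 24.1 CPM in nuclear and 11.7, 6.11 and 12.7 in cytoplasmic libraries (log2 difference 1.03 ± 0.24, SE, limma adjusted p 0.000578). The difference was still called when the highest intron peak was left out (0.84 ± 0.30, SE, limma adjusted p 0.0253).

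Of the 158 member peaks that could be tested one by one, 12 were lower in the nuclear fraction of mock cells and none higher, all 12 in 3'UTRs, where 3.09% of all 334689 peaks were called in either direction. Among 3'UTR peaks 12 of 71 were called lower (16.9%), against 15.4% of all 3'UTR peaks, a share near the background. edgeR's quasi-likelihood test on the recovered tags called 7 member peaks, all lower, and 1.65% of all peaks. On simulated data limma's calls of single peaks held 16 false ones beside 28 true ones, and edgeR's 0 beside 52. The called peaks were 5 in MDM2, 2 each in CCND1, CCNA2 and CDK6, and 1 in CDKN1B, at chr12:12722167-12722187, 182 nt before the gene's end. The MDM2 peaks lay 10545, 9807, 8970, 7839 and 7563 nt before the end of that gene, and the smallest of their differences was -1.01, at 8970 nt. In CDK6, on the minus strand of chromosome 7, the highest 3'UTR peak, chr7:92608535-92608555, 3615 nt before the end, had 1.46, 0.909 and 1.93 CPM in nuclear and 6.38, 8.15 and 7.38 CPM in cytoplasmic mock libraries (-1.37 ± 0.38, SE, limma adjusted p 0.0198), and the other, 5474 nt before the end, differed by -1.12 (limma adjusted p 0.0339). The second CCNA2 peak, 1089 nt before the end, differed by -1.10 (limma adjusted p 0.0302).

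The highest intron peaks were low. That of CDK6, chr7:92721830-92721850, had 5.83, 2.73 and 4.83 CPM in nuclear and 2.13, 3.06 and 0 CPM in cytoplasmic mock libraries, which overlapped (0.81, limma adjusted p 0.258). That of MDM2, chr12:68831149-68831169, had 34 tags in the 12 fraction libraries and differed by -0.44 (limma adjusted p 0.624). That of CDKN1B, with 22 tags, lay upstream of the RefSeq gene start and had 4.37, 5.46 and 1.93 CPM in nuclear mock libraries, while no other fraction library was above 2.11 CPM. The highest intron peaks of CCNB1 and CCND1 had 6 and 4 tags, and the highest 3'UTR peak of CCNB1, 472 nt before its end, had 20.

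The same comparison in arsenite-treated cells gave few calls. Of the 18 sums 2 were called between nuclear and cytoplasmic arsenite libraries, where 3.33% of all sums were. CCNA2 3'UTR signal was again lower in the nuclear fraction, with 1.6, 4 and 0.866 CPM against 10.1, 9.66 and 7.65 (log2 difference -1.42 ± 0.35, SE, limma adjusted p 0.00614). That call was lost without nuclear arsenite library 3 and without cytoplasmic arsenite library 1 or 2, where the difference was -1.20 to -1.38 and the limma adjusted p 0.0525 to 0.0945. The second was a peak of the non-coding RNA class within CDK6, annotated to a small nuclear RNA, with 8 tags over the nuclear and 0 over the cytoplasmic arsenite libraries (limma adjusted p 0.0481), and it kept its call in 9 of 20 alternatives. Every library but nuclear arsenite library 2 and the cytoplasmic mock libraries ended it when left out (adjusted p 0.0532 to 0.287), although the fitted difference of 0.90 was smaller only without nuclear arsenite library 1 (0.62). The CCND1 3'UTR differed by -0.32 (limma adjusted p 0.455), MDM2 by 0.30 (limma adjusted p 0.579) and WEE1 by 0.26 (limma adjusted p 0.686). Of these 3 genes only MDM2 had ranges that did not overlap, narrowly, at 52.8 to 72.9 CPM in nuclear and 43.2 to 52.2 CPM in cytoplasmic libraries. The CDK6 3'UTR had 10.4, 12.8 and 17.3 CPM in nuclear and 28.2, 23.3 and 23 CPM in cytoplasmic arsenite libraries, without overlap, and its difference of -0.80 missed the threshold (limma adjusted p 0.0882). In 5 of 21 alternatives it was called lower in the nuclear fraction: by edgeR (adjusted p 0.0241), by edgeR with TMM (adjusted p 0.0361), and by limma with a pseudocount 4 times larger, a stricter filter or only the 2 groups compared (limma adjusted p 0.0288 to 0.0438). CCND1 introns, with 8 tags over the nuclear and 0 over the cytoplasmic arsenite libraries, were called higher by edgeR (adjusted p 0.0345) and not by limma (adjusted p 0.106). Over the 3'UTR class the members' median was -0.32 and that of all genes -0.14, with 7.24% of all called lower. No member peak was called by limma or edgeR, where limma called 0.241% and edgeR 0.398% of all peaks. At an unadjusted p under 0.05 limma had 20 of 158 member peaks and 26482 of all 334689. At the same level edgeR had 18 and 23593.

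**Figure D2:**
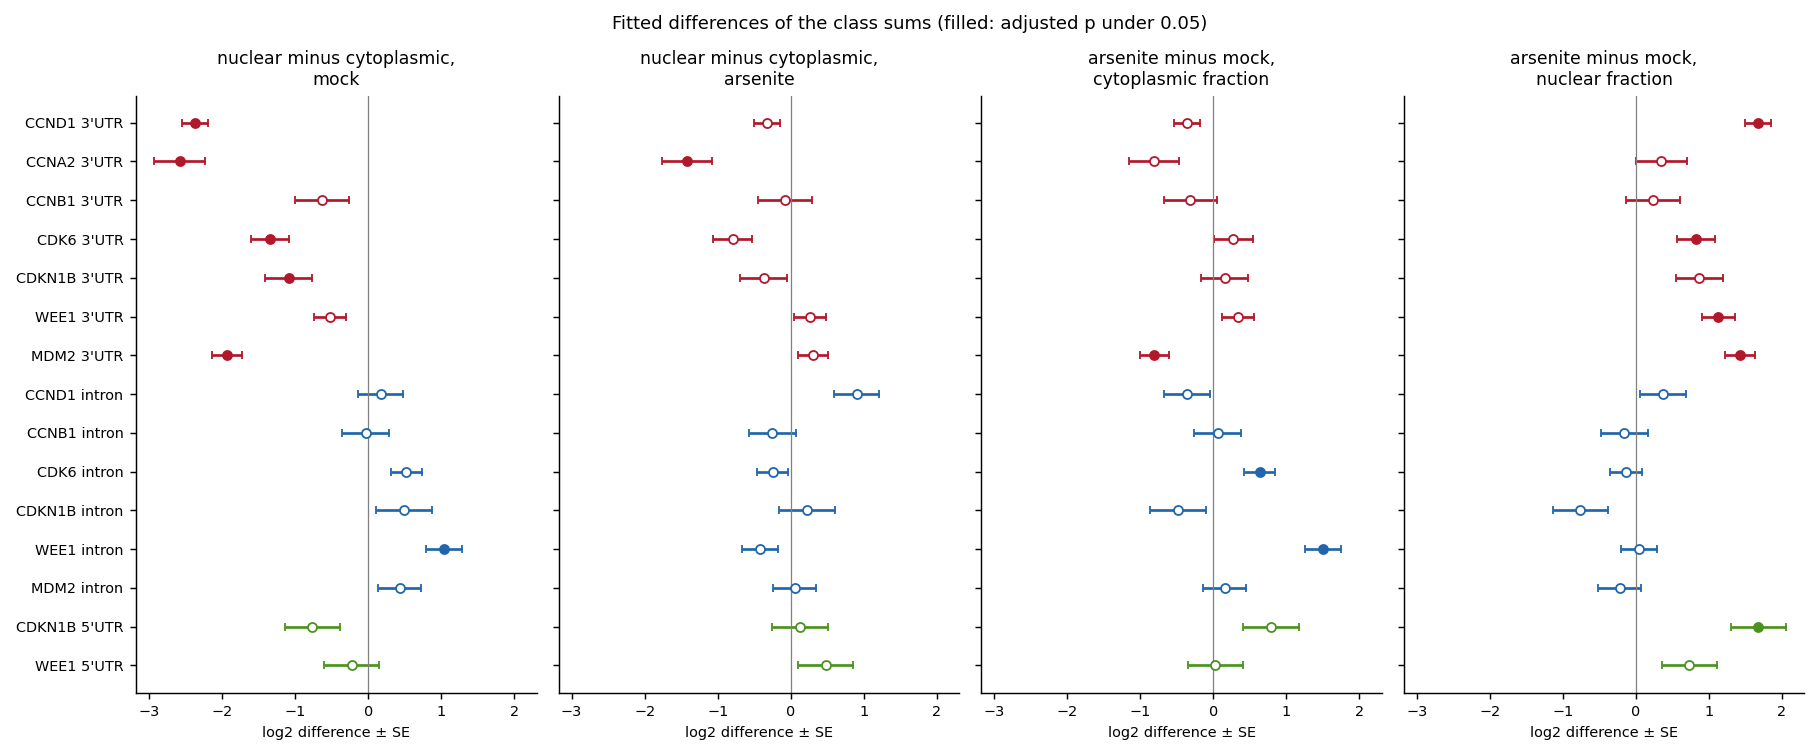
Fitted log2 differences (limma, on log2(CPM + 2.28), with SE) of the 3'UTR, intron and 5'UTR sums of 7 genes in the 4 fraction comparisons; filled points had an adjusted p under 0.05. In mock cells 5 3'UTR sums lay below 0 with filled points, and after arsenite the nuclear fraction had filled points above 0 for CCND1, MDM2, WEE1 and CDK6 3'UTRs.

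Arsenite was then compared with mock treatment within each fraction. In the nuclear fraction the 3'UTR signal of CCND1, MDM2, WEE1 and CDK6 rose, as did the 5'UTR peak of CDKN1B and the CDK6 peak of the non-coding RNA class. These were 6 of 18 sums, each higher after arsenite, where 6.81% of all sums were called in either direction and 5.07% were higher. Of the 7 3'UTR sums 4 rose, against 15.9% of all 3'UTR sums, with medians of 0.87 for the members and 0.30 for all. The median difference of intron sums was -0.15 for the members and -0.08 for all.

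CCND1 3'UTR signal rose from a mean of 25.8 ± 5.33 to 87.4 ± 16.2 CPM (SD, n = 3 each), with 89.7, 102 and 70.2 CPM in the nuclear arsenite libraries. None of these overlapped the mock libraries, and the log2 difference was 1.68 ± 0.18 (SE, limma adjusted p 1.57e-11). The highest CCND1 peak rose from 13.5 to 25.5 CPM in the mock libraries to 64.1, 80 and 48.5 CPM (1.67 ± 0.19, SE, limma adjusted p 3.37e-11), and the sum without it rose by 1.47. MDM2 3'UTR signal rose from 21.7 ± 7.91 to 60.7 ± 10.7 CPM (SD, n = 3 each), with 72.9, 52.8 and 56.3 CPM after arsenite (log2 difference 1.43 ± 0.20, SE, limma adjusted p 1.34e-07). WEE1 3'UTR signal rose from 19.4 ± 4.45 to 44.9 ± 8.3 CPM (SD, n = 3 each), with 51.2, 48 and 35.5 CPM after arsenite (1.13 ± 0.22, SE, limma adjusted p 0.000132). For these 3 genes the call held under every alternative listed in the closing section. For WEE1, 2 of the 3 nuclear arsenite libraries were above all 6 cytoplasmic ones.

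CDK6 3'UTR signal was 8.74, 6.36 and 4.83 CPM in nuclear mock and 10.4, 12.8 and 17.3 in nuclear arsenite libraries (log2 difference 0.82 ± 0.26, SE, limma adjusted p 0.0419). The groups did not overlap, but the call held in only 9 of 21 alternatives, with an adjusted p of 0.0182 to 0.234, and edgeR did not make it (adjusted p 0.0926). It was lost without nuclear mock library 2 or 3, nuclear arsenite library 2 or 3, or any 1 cytoplasmic arsenite library, where the difference was 0.66 to 0.84. CDKN1B 3'UTR levels of 2.91 to 5.46 CPM in mock and 5.2 to 12 CPM in arsenite libraries overlapped, and the difference of 0.87 ± 0.32 missed the threshold (SE, limma adjusted p 0.0929). Without nuclear arsenite library 3 it was 1.14 and called (limma adjusted p 0.046). CCNA2 (log2 difference 0.35, limma adjusted p 0.658) and CCNB1 (0.24, limma adjusted p 0.795) stayed at a few tags per library in the nucleus under both treatments.

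The CDKN1B 5'UTR peak, chr12:12717791-12717811 on the plus strand, lies 424 nt after the start of the RefSeq gene span. It had 0, 0.909 and 0.966 CPM in nuclear mock libraries, that is 0 to 1 tag each, and 11.2, 6.4 and 4.33 CPM in nuclear arsenite libraries. Every arsenite library was above every mock one, and the log2 difference of 1.68 ± 0.38 passed both in the sums (SE, limma adjusted p 0.00127) and as a single peak (limma adjusted p 0.0108, edgeR adjusted p 0.0162). In the cytoplasmic fraction the same peak had 4.25, 3.06 and 1.05 CPM in mock and 2.89, 6.82 and 10.4 in arsenite libraries, which overlapped (0.79, limma adjusted p 0.185). It and the highest CCND1 peak were the 2 of 158 member peaks called between treatments in the nuclear fraction, where limma called 0.358% of all peaks. edgeR called 3 member peaks and 0.275% of all.

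The CDK6 peak of the non-coding RNA class had 0 tags in all 3 nuclear mock libraries and 5, 1 and 2 in the nuclear arsenite libraries, 8 in all. Its fitted difference of 0.90 (limma adjusted p 0.0282) depends on the pseudocount and is no bound, and the call held in 13 of 20 alternatives. It was lost by edgeR (adjusted p 0.102), without any 1 nuclear mock library and without nuclear arsenite library 1 (adjusted p 0.203, the highest). It is annotated to a small nuclear RNA, a class of which the genome holds many near-copies, and its tags could have come from another copy.

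In the cytoplasmic fraction the called sums went in both directions. Of 18 sums 3 were called, MDM2 3'UTR lower and WEE1 and CDK6 introns higher, where 12.8% of all sums were called. Of the 7 3'UTR sums 1 fell, against 18% of all 3'UTR sums, with medians of -0.32 and -0.26, and of the 6 intron sums 2 rose, against 14.5% of all, with medians of 0.11 and 0.24. With TMM scaling, which moved the median of all sums by -0.12, 35.9% of all calls were higher in place of 53.1%, and of the members 1 was higher and 3 lower, with the CDK6 intron call lost, where 12.1% of all sums were called. CCNA2 3'UTR (-0.81, limma adjusted p 0.121) and CCND1 3'UTR (-0.37, limma adjusted p 0.193), which limma did not call, were called lower by edgeR with TMM (adjusted p 0.00987 and 0.00638) and by edgeR without it (adjusted p 0.0255 and 0.0392). By limma CCNA2 was also called with a pseudocount 4 times larger and with only the 2 groups compared, and CCND1 without cytoplasmic mock library 1 (-0.52, limma adjusted p 0.043).

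MDM2 3'UTR signal fell from 63.8, 109 and 91.7 CPM in cytoplasmic mock libraries to 49.8, 43.2 and 52.2 CPM after arsenite (log2 difference -0.81 ± 0.20, SE, limma adjusted p 0.00304). The groups did not overlap. Without cytoplasmic mock library 2, the highest, the difference was -0.64 and missed the threshold (limma adjusted p 0.0577, the highest of its alternatives). Of the single 3'UTR peaks of MDM2 2 passed the test. The peak chr12:68840121-68840141, 10545 nt before the gene's end, fell from 11.7, 14.3 and 11.6 CPM to 2.17, 2.27 and 0.696 CPM (-1.91 ± 0.38, SE, limma adjusted p 0.000593), and chr12:68840859-68840879, 9807 nt before the end, fell from 14.9, 39.7 and 25.3 CPM to 7.22, 9.66 and 9.74 CPM (-1.29, limma adjusted p 0.0481, a call made in 6 of 21 alternatives). The peaks 7839 and 7563 nt before the end differed by -0.18 (limma adjusted p 0.907) and -0.23 (limma adjusted p 0.882). Whether the upstream and downstream peaks differed from each other in response was not tested.

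WEE1 introns carried the largest response in the cytoplasm. Their sum rose from 11.7, 6.11 and 12.7 CPM to 29.6, 31.8 and 34.1 CPM (log2 difference 1.50 ± 0.24, SE, limma adjusted p 3.07e-06). One peak, chr11:9582868-9582888, 9199 nt after the gene's start and 7097 nt before its end, held 165 of the 324 intron tags (50.9%). It had 2, 1 and 1 tags in the cytoplasmic mock and 33, 36 and 37 in the cytoplasmic arsenite libraries, or 2.13, 1.02 and 1.05 against 23.8, 20.5 and 25.7 CPM (log2 difference 2.81 ± 0.38, SE, limma adjusted p 3.39e-08). The nuclear libraries lay between, at 4.37, 4.55 and 7.72 CPM in mock and 9.61, 7.2 and 15.6 CPM after arsenite. In a version added after the data were seen, the intron sum without this peak differed by -0.02 between treatments in the cytoplasm (limma adjusted p 0.986), so the called rise rests on this 1 peak. The table gives this peak an intron label and a downstream label together.

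CDK6 intron signal was 28.7, 23.4 and 19 CPM in cytoplasmic mock and 38.3, 37 and 37.6 CPM in arsenite libraries (log2 difference 0.63 ± 0.21, SE, limma adjusted p 0.0351). The groups did not overlap, and the call held in 15 of 21 alternatives, with an adjusted p of 0.01 to 0.173. It was lost without cytoplasmic mock library 2 or 3 or any 1 cytoplasmic arsenite library, where the difference was 0.50 to 0.65. NEAT1, a transcript retained in the nucleus, also averaged more CPM in cytoplasmic arsenite than in cytoplasmic mock libraries (232 against 125), and its part in the intron results was not tested. CCND1 3'UTR signal in the cytoplasm was 114, 124 and 197 CPM in mock and 108, 126 and 94.6 CPM in arsenite libraries, which overlapped (-0.37, limma adjusted p 0.193). CCNA2 had 21.3, 20.4 and 12.7 CPM against 10.1, 9.66 and 7.65 CPM without overlap, a difference of -0.81 that missed the threshold (limma adjusted p 0.121). WEE1 3'UTR signal overlapped between treatments (0.34, limma adjusted p 0.364).

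Of the 158 tested member peaks 4 were called between treatments in the cytoplasm, where limma called 1.11% of all peaks. edgeR also called 4, and 0.991% of all. Besides the WEE1 intron peak and both MDM2 peaks it was a minor CCND1 3'UTR peak, chr11:69652530-69652550, which rose from 1.06, 1.02 and 1.05 CPM to 6.5, 5.12 and 4.87 CPM (1.22, limma adjusted p 0.0469). edgeR did not call that peak (adjusted p 0.161), and the call held in 7 of 21 alternatives. The main CCND1 peak, 1018 nt before the end, had 75.8, 92.1 and 69.6 CPM in the cytoplasmic arsenite libraries. Within the WEE1 3'UTR the highest peak, 917 nt before the end, had 16, 13.2 and 24.3 CPM in cytoplasmic mock and 32.5, 25.6 and 27.1 CPM in arsenite libraries, while the next, 676 nt before the end, had 4.25, 7.13 and 9.49 CPM and 2.17, 5.68 and 2.78 CPM. Neither difference passed the test (0.64, limma adjusted p 0.453, and -0.67, limma adjusted p 0.543).

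**Figure D3:**
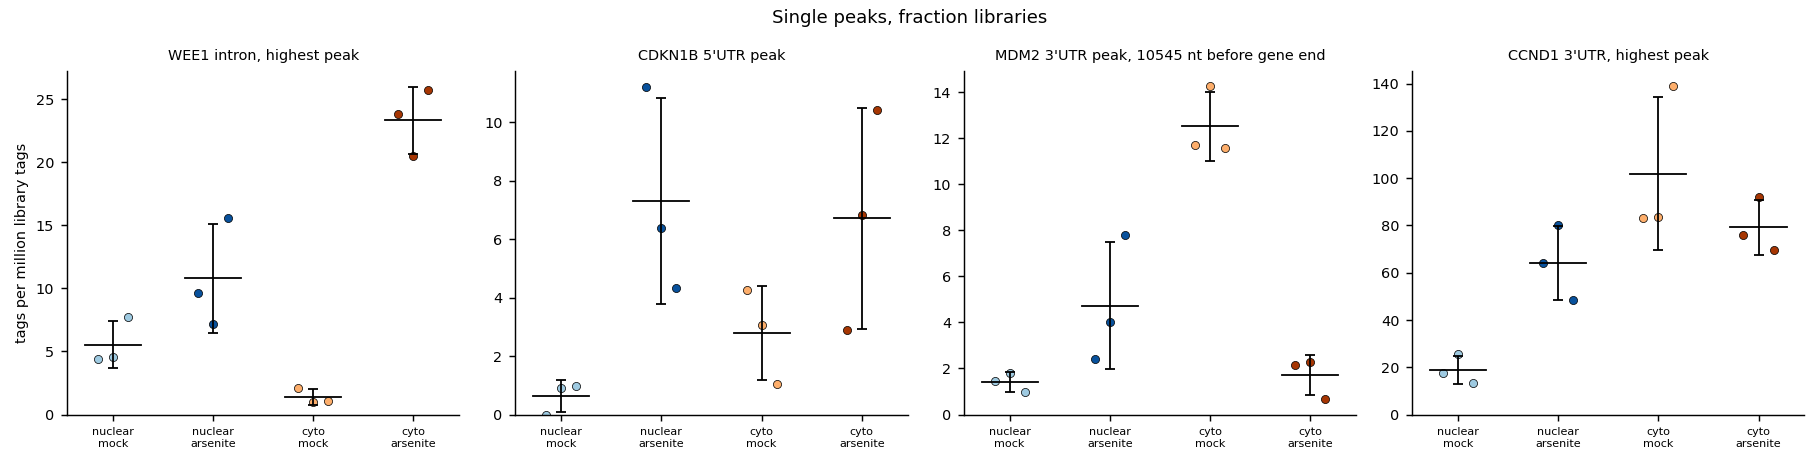
CPM at 4 single peaks in the 12 fraction libraries (points), with the mean and SD of 3 libraries per group. The WEE1 intron peak was at 1.02 to 2.13 in cytoplasmic mock and 20.5 to 25.7 in cytoplasmic arsenite libraries, and the CDKN1B 5'UTR peak was at most 0.966 in nuclear mock and 4.33 to 11.2 in nuclear arsenite libraries.

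Whether arsenite changed the 2 fractions differently was tested directly with an interaction term. It was called for 4 of 18 sums, where 11% of all were. The response of the 3'UTR in the nuclear fraction exceeded that in the cytoplasmic fraction by 2.04 ± 0.25 for CCND1 (SE, limma adjusted p 2.55e-09) and by 2.23 ± 0.29 for MDM2 (SE, limma adjusted p 7.11e-09), and for WEE1 introns it was lower by -1.46 ± 0.35 (SE, limma adjusted p 0.0017). The fourth was the low CDK6 peak of the non-coding RNA class (1.45, limma adjusted p 0.0066). Without its highest peak the WEE1 intron term was -0.42 and no longer called (limma adjusted p 0.612), and that of CCND1 was 1.92 and still called. WEE1 3'UTR (0.79, limma adjusted p 0.0942) and CCNA2 3'UTR (1.16, limma adjusted p 0.124) missed the threshold. The call on the WEE1 3'UTR depended on the setting: it was made in 4 of 20 alternatives, by edgeR (0.92, adjusted p 0.0485), by edgeR with TMM (1.08, adjusted p 0.0179), and by limma with a stricter filter (limma adjusted p 0.0341) and without cytoplasmic mock library 2 (0.95, limma adjusted p 0.0461). CDK6 introns (-0.77, limma adjusted p 0.0889) were called with a stricter filter and without cytoplasmic mock library 1 (-0.91, limma adjusted p 0.0286). Among 3'UTR sums 2 of 7 were called higher, against 24.2% of all, with medians of 0.79 and 0.63, and among introns 1 of 6 was called lower, against 9.37%, with medians of -0.33 and -0.36. With TMM scaling, which moved the median of all sums by 0.16, 78.1% of all calls were higher in place of 63.9%.

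The balance between 3'UTR and intron signal of one gene could be tested for CDK6, MDM2 and WEE1, the genes with enough tags in both classes, among 2073 such genes. This balance is the log2 3'UTR level minus the log2 intron level, so a scaling factor of the library nearly cancels in it. In mock cells it was lower in the nuclear fraction for all 3, by -1.87 ± 0.36 for CDK6 (SE, limma adjusted p 4.98e-05), -2.36 ± 0.35 for MDM2 (SE, limma adjusted p 2.34e-06) and -1.56 ± 0.35 for WEE1 (SE, limma adjusted p 0.000294). That held for 92.1% of all genes tested, whose median was -2.15. In tags, CDK6 had 18 3'UTR and 99 intron tags in nuclear mock and 58 and 68 in cytoplasmic mock libraries, and WEE1 had 53 and 64 against 83 and 29. After arsenite the balance differed between fractions for none of the 3 by limma, where 8.49% of all genes were called lower. At an unadjusted p under 0.05 limma had 0 of the 3 and 519 of all 2073 genes. CDK6 differed by -0.55 (limma adjusted p 0.355), MDM2 by 0.25 (limma adjusted p 0.705) and WEE1 by 0.69 (limma adjusted p 0.225).

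After arsenite the balance of the nuclear fraction rose for MDM2 (1.65, limma adjusted p 0.00106), WEE1 (1.09, limma adjusted p 0.0172) and CDK6 (0.96, limma adjusted p 0.034), as for 42.4% of all genes. In the cytoplasmic fraction it fell for WEE1 (-1.16, limma adjusted p 0.00984) and MDM2 (-0.96, limma adjusted p 0.0258), as for 50.4% of all genes, and missed the threshold for CDK6 (-0.36, limma adjusted p 0.402). In the nucleus the call was lost in 7 of 19 alternatives for CDK6, among them without mock library 2 or 3 and arsenite library 2 or 3 (0.70 to 1.03), and in 3 of 20 for WEE1, among them without mock library 2 or arsenite library 1 (0.91 and 0.87). In the cytoplasm the call on WEE1 rested on its highest intron peak: without that peak, an alternative chosen after seeing the data, the balance was 0.36 ± 0.37 (SE, limma adjusted p 0.426). In the nuclear fraction the WEE1 balance without that peak was 1.57 and still called (limma adjusted p 0.00241). The cytoplasmic call was lost in 5 of 19 for MDM2, among them without mock library 2 or 3 and arsenite library 1 or 2 (-0.76 to -0.97).

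Summed over the 8 genes, the 3'UTR share of 3'UTR plus intron tags was 51.4% ± 5.92 in nuclear mock, 76.0% ± 1.60 in nuclear arsenite, 86.8% ± 2.46 in cytoplasmic mock and 74.9% ± 1.10 in cytoplasmic arsenite libraries (SD, n = 3 each). Over all other peaks the shares were 17.8%, 28.9%, 58.0% and 35.9%. In both sets nuclear mock libraries were lowest and cytoplasmic mock libraries highest, and the 8 genes lay above the other peaks in each group. Nuclear and cytoplasmic arsenite libraries overlapped in the share of the 8 genes. In level, members' 3'UTRs averaged 81.4 ± 13.1, 220.9 ± 28.8, 316 ± 53.2 and 244 ± 9.01 CPM in these 4 groups, and their introns 76.3 ± 6.02, 69.4 ± 6.39, 47.1 ± 3.11 and 81.6 ± 2.04 CPM (SD, n = 3 each). CCND1, MDM2 and WEE1 supply most of the 3'UTR tags, so this sum chiefly shows those 3 genes.

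**Figure D4:**
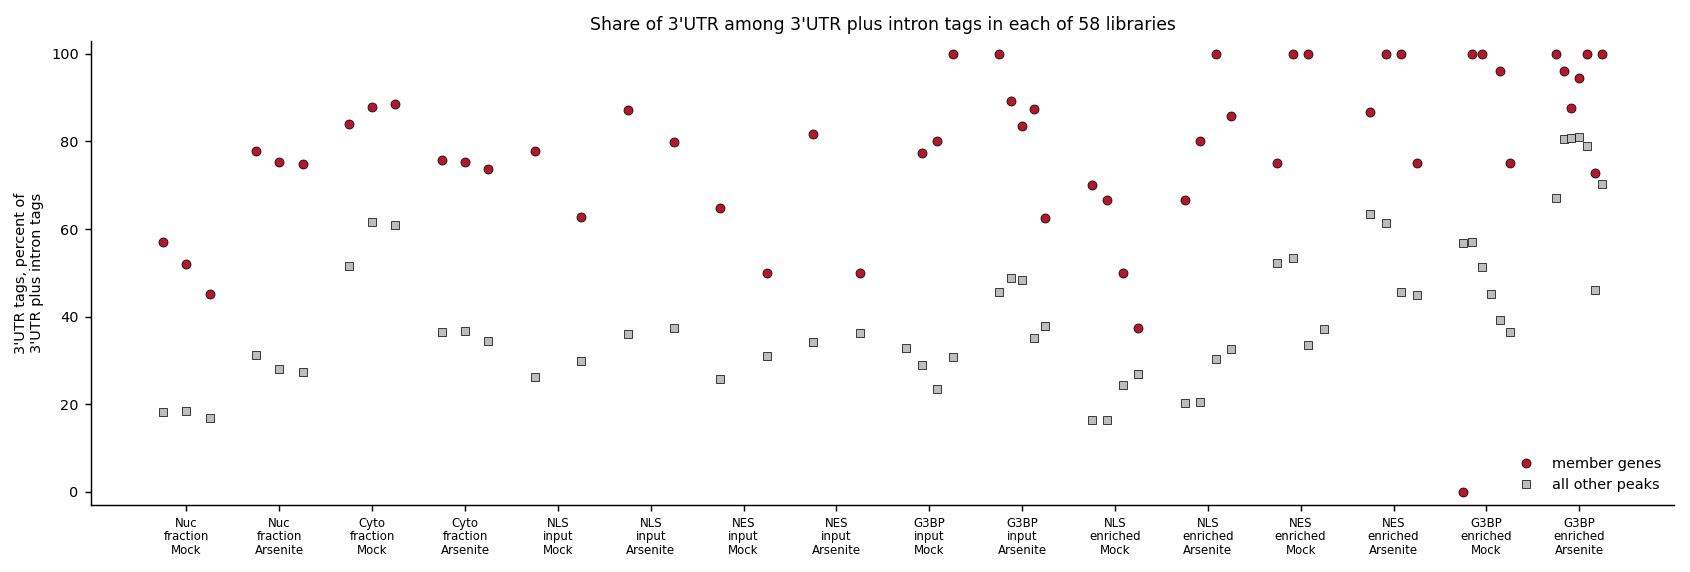
Share of 3'UTR tags among 3'UTR plus intron tags by library and group, for the 8 genes (circles, 55 of 58 libraries, since 3 had no such tag of these genes) and for all other peaks (squares, 58 libraries). In the fraction libraries the 8 genes sit at 45.2 to 88.6% and other peaks at 17.0 to 61.7%; circles at 0 or 100% in enriched groups rest on few tags.

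In the labelled lines the tags were fewer. The input libraries, which had no streptavidin capture, held 57 to 556 3'UTR tags of these genes per group, and the enriched groups 9 to 194. Pooled over each group's libraries, the 3'UTR share among 3'UTR plus intron tags of the 8 genes was 73.6% in NLS mock and 85.8% in NLS arsenite inputs, 64.0% and 80.9% in NES inputs, and 79.6% and 86.2% in G3BP inputs. In the enriched libraries it was 57.7% in NLS mock (15 3'UTR and 11 intron tags) and 83.7% in NLS arsenite (36 and 7), 90.0% in NES mock (9 and 1) and 92.5% in NES arsenite (37 and 3), and 82.3% in G3BP mock (65 and 14) and 91.9% in G3BP arsenite (194 and 17). The pooled share was higher after arsenite in each of the 6 pairs of groups, with no test, and pooling weights the deeper libraries. The mean of the libraries' own shares went the other way in 2 pairs, from 85.8% in mock (3 of 4 libraries with such tags) to 84.5% after arsenite (5 libraries) in G3BP inputs and from 91.7% (3 of 4 libraries) to 90.4% (4 libraries) in NES enriched libraries. Over all other peaks the mean share was also higher after arsenite in each pair, by the least in NLS enriched libraries (21.0% to 26.0%) and by the most in G3BP enriched libraries (47.7% to 72.1%).

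In 5 pairs of enriched libraries (NLS mock 1 and 2, NLS arsenite 1 and 2, NES arsenite 1 and 2, G3BP mock 3 and 4, and G3BP arsenite 4 and 5) no difference beyond the sampling noise was detected in the tags over 500 peaks. Each pair may be 1 library, and counting it as 1 sample changed no call.

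No member sum was called in any of 7 comparisons of enriched libraries (NLS against NES and G3BP against NES in each treatment, and arsenite against mock in each line). Between 1 and 5 member sums had enough tags to be tested in each. On simulated data limma recovered 0 of 200 sums changed 4-fold in G3BP arsenite against mock. It recovered 6 in NLS against NES mock and 24 in G3BP against NES arsenite, so a missing call does not show equal levels. At an unadjusted p under 0.05 limma had 1 of 5 member sums in NLS against NES after arsenite (1138 of 3704 sums in all). In G3BP arsenite against mock limma had 3 of 5 (415 of 2560 in all). edgeR had 1 of 4 in NLS (345 of 5238) and 2 of 5 in G3BP arsenite against mock (494 of 2560). Over all sums limma called 20.8% in NLS against NES in mock and 14.1% in arsenite-treated cells, 3.12% in G3BP against NES after arsenite and 0 in the other 4, where edgeR called 0 to 108 sums. These counts over all sums depended on the tool and the scaling. In NLS against NES in mock cells limma called 596 and edgeR 14, and after arsenite limma called 522 and edgeR 363. In G3BP against NES after arsenite limma called 71 higher and 0 lower, edgeR 98 higher and 0 lower, edgeR with TMM 1 higher and 42 lower, and limma scaled to tags in peaks none. The largest differences were in G3BP arsenite against mock, at 2.41 ± 1.12 for CCND1 3'UTR (SE, limma adjusted p 0.274), 2.09 ± 1.01 for MDM2 (SE, limma adjusted p 0.291) and 1.72 ± 0.79 for CDK6 (SE, limma adjusted p 0.269). Those of CCND1 and MDM2 varied with the library set: that of CCND1 was 2.47 within JL0361 and -2.09 within JL1024, and 0.03 without libraries of under 2000 tags in peaks. Within JL0388 no fold is given, since both mock libraries were at 0 tags and the mock and the arsenite pair may each be 1 library. That of MDM2 was 3.98 within JL0361 and -0.08 within JL1024. The difference of CDK6 stayed above 0, at 1.29 within JL0361 and 2.24 within JL1024. It was 2.12 without libraries of under 2000 tags in peaks, and it was called in none of these.

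The tags of 1 gene varied widely among libraries of a group. The CCND1 3'UTR had 0, 1, 0, 0, 16 and 23 tags in the 6 G3BP enriched mock libraries and 0, 51, 40, 24, 7, 0 and 2 in the 7 arsenite libraries, ranges that overlap from 0 upwards. NLS enriched libraries had 3, 4, 0 and 1 tags in mock and 2, 8, 4 and 2 after arsenite, and NES enriched libraries 2, 2, 1 and 0 and then 9, 3, 10 and 1. The NLS inputs held 66 and 16 tags in mock and 229 and 29 after arsenite, and the NES inputs 34 and 1 in mock and 29 and 1 after arsenite. Within each library set the NLS input was higher after arsenite, at 99.8 against 40.8 CPM in JL0388 and 16.3 against 6.1 CPM in JL1024. The NES input was at 71.7 against 40.8 CPM in JL0388 but at 8.16 against 8.27 CPM, 1 tag each, in JL1024, with 1 library per set and treatment and no test. MDM2 3'UTR tags in G3BP enriched libraries were 0, 0, 0, 0, 2 and 6 in mock and 1, 14, 11, 3, 0, 3 and 0 after arsenite, and those of WEE1 0, 0, 1, 0, 7 and 2 and then 0, 4, 0, 4, 0, 1 and 0.

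Other genes of the same pathways were taken from a list of 51 cell-cycle and p53 genes outside these 9. Of these, 36 had testable 3'UTR sums and 39 intron sums. In mock cells 21 of 36 3'UTR sums were lower (47% of all 3'UTR sums were) and 1 higher in the nuclear fraction (median -0.97), and 12 of 39 intron sums were higher (26.5% of all) and 1 lower (median 0.40). Between fractions after arsenite 3 3'UTR sums were lower (7.24% of all) and no intron sum was called. After arsenite 6 3'UTR sums rose in the nuclear fraction (15.9% of all; median 0.47) and 1 intron sum fell (2.67% of all). In the cytoplasm 5 3'UTR sums fell (18% of all; median -0.32) and 6 intron sums rose (14.5% of all; median 0.19). The interaction was called higher for 10 3'UTR sums (24.2% of all; median 0.89) and lower for 1 intron sum (9.37% of all). Most of these shares lay near those over all sums.

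MDM4, the partner of MDM2 in restraining p53, was lower in the nuclear fraction of mock cells on its 3'UTR (-0.99, limma adjusted p 0.000157) and rose there by 0.99 after arsenite (limma adjusted p 0.000664). RRM2B, a p53-induced ribonucleotide reductase subunit, was lower in the nuclear fraction (-2.50, limma adjusted p 5.32e-17) and, like MDM2, fell in the cytoplasm after arsenite (-1.83, limma adjusted p 1.04e-10). CCNG1, a cyclin induced by p53, had a difference of -3.07 between the fractions in mock cells (limma adjusted p 1.57e-12). RBL1, a relative of the retinoblastoma protein, was the 1 gene with a 3'UTR sum that was higher in the nuclear fraction (1.33, limma adjusted p 0.00708). BTG2, CDK2, E2F3 and SKP2 were also among the genes whose 3'UTR sum rose in the nucleus after arsenite.

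For 5 genes with at least 10 3'UTR tags per fraction library on average, the gene with the most alike 3'UTR pattern over the 12 fraction libraries was found among 2048 genes outside the list, by Pearson's correlation of log2(CPM + 2.28). It was ZNF217 for CCND1 (0.989), NHSL1 for MDM2 (0.978), TUG1 for CDK6 (0.965), C2orf72 for WEE1 (0.909) and PER2 for CDKN1B (0.899). The median correlation over all 2048 genes was 0.802 for CCND1, 0.742 for MDM2, 0.707 for CDK6, 0.577 for CDKN1B and 0.331 for WEE1, the lowest of the 5. The points share libraries and depth.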

How the data were processed

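The authors deposited 1 table of signal per HuR peak and library; per the submitters' processing notes Bowtie2, SAMtools, bedtools and HOMER were used with GRCh38.p14, with roles not given in the sources used here. The signal deposited equals tags divided by a library total: whole tags were recovered for 100% of values (tolerance 0.02). Totals were 4662 to 2622677 tags, of which 3.85% to 38.7% lay in peaks; 16 libraries had under 10000 tags in peaks. Of 395471 lines 8257 repeats were dropped. Groups come from sample titles, and classes and gene names from the table.

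Peaks were summed per gene and class. Limma 3.58.1 (lmFit, eBayes with trend, R 4.3.3) was run on log2(CPM + 2.28) over all features with 4 fraction groups in 1 fit, or with the library set as covariate in enriched comparisons; this scale understates differences of low levels. Calls used a two-sided Benjamini-Hochberg adjusted p under 0.05. How often the ranges of 2 groups did not overlap was not counted over all features, so such statements only describe the libraries named. edgeR 4.0.16 on recovered tags was the alternative. Scripts (Python 3.11.15, pandas 2.3.3) were tested on simulated data. Of 200 features changed 4-fold in the fractions, limma recovered 28 single peaks with 16 false calls, and edgeR 52 with 0. For sums limma recovered 146 with 12 false calls, and edgeR 138 with 5. In simulated enriched comparisons limma recovered 0 to 24 of 200 sums and edgeR 39 to 86. Floors cover counting error only.

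Members and lists were chosen with earlier results of these data known. Named peaks are, per gene, the 3'UTR and intron peaks with the most fraction tags and every called peak; the WEE1 3'UTR peak 676 nt before the end was chosen after its values were seen. RefSeq spans (GRCh38.p14) matched by symbol. Peak sequences were not used here.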

Additional observations from a re-analysis of the deposited data

Results flagged for a closer look

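The response to arsenite differed between the fractions, by the interaction term of the limma fit on log2(CPM + 2.28), for 4 of 18 class sums. The same call was made for 11% of all sums. The nuclear response exceeded the cytoplasmic one by 2.04 for CCND1 3'UTR, by 2.23 for MDM2 3'UTR and by 1.45 for the CDK6 peak of the non-coding RNA class, and for WEE1 introns it differed by -1.46. Without its highest peak the WEE1 intron term was -0.42 and not called (limma adjusted p 0.612).

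That CDK6 peak had most of its tags outside the fractions: 22 of its 61 tags were in NLS input mock library 2 and 12 in NLS input arsenite library 2, both of set JL1024, while the NLS inputs of set JL0388 had 0. No reported comparison uses these inputs for this peak.

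A single library stood far from the others of its group, relative to the group's range, at 14 ends of 52 groups of values tested. The limits used presume normally distributed values, while most of these values rest on few tags. Where every other library of a group was at 0, the remaining library stood apart by construction. The measures also overlap, since the sums of the 8 genes contain the single genes. How many such ends chance would give was therefore not determined. For the 3'UTR sum of the 8 genes this was NLS enriched arsenite 2, at 89.2 CPM. For their intron sum it was NES enriched mock 1 at 26.4 CPM, NES enriched arsenite 1 at 52.3 CPM and G3BP enriched mock 1 at 158 CPM, a library of 6330 tags in all with 519 in peaks, whose 3'UTR share was 0%. For CCND1 3'UTR it was G3BP input arsenite 4 at 109.7 CPM and NES enriched arsenite 1 at 235 CPM, which is 9 tags of 38255. MDM2 3'UTR stood apart in NES enriched mock 1 at 26.4 CPM and NES enriched arsenite 1 at 78.4 CPM. WEE1 3'UTR did so in NES enriched mock 2 at 19.9 CPM, G3BP enriched mock 3 at 67.8 CPM (1 tag) and G3BP enriched arsenite 4 at 45.1 CPM. CDK6 3'UTR did so in NLS enriched mock 1 at 4.93 CPM and G3BP enriched mock 6 at 4.24 CPM.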

How the results depend on the processing

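Counts of called member sums in the fractions mostly kept within 1.5 times. The share of all features called under each setting is not given beside the counts in this paragraph, and the counts can move with it. Sums called between fractions after arsenite (2) were 4 by edgeR, 4 with TMM, 1 with a pseudocount 4 times smaller and 1 with no filter. Those called between treatments in the cytoplasm (3) were 5 by edgeR. Single peaks depended more on the setting: 12 between fractions in mock cells became 7 by edgeR and 6 with only the 2 groups compared; 0 between fractions after arsenite became 1 with TMM, 1 with a pseudocount 4 times larger and 2 with a stricter filter; 4 in the cytoplasm became 2 with a smaller pseudocount, 2 with no filter and 2 with only the 2 groups; 2 in the nucleus became 5 with TMM and 1 with only the 2 groups. The class balance in mock cells (3) was called for 5 genes, and that in the cytoplasm (2) for 1, when both classes had to be non-zero in at least 3 libraries. Leaving out 1 library gave 6 to 7 sums between fractions in mock, 0 to 2 after arsenite, 1 to 4 in the cytoplasm, 4 to 6 in the nucleus and 4 to 5 for the interaction; for peaks 6 to 12, 0 to 1, 2 to 4 and 1 to 2 in the first 4 of these, and for the balance 3 to 3, 0 to 0, 1 to 2 and 1 to 3. Enriched comparisons gave 0 in each such version, and 1 within set JL1024 (NLS against NES mock, G3BP against NES mock), within JL0388 (NLS against NES arsenite, G3BP arsenite against mock) and without libraries under 2000 tags in peaks (G3BP against NES mock). Both comparisons within JL0388 set pairs of libraries against each other that may each be 1 library, and in the G3BP one the mock pair had 0 CCND1 3'UTR tags. MDM2 3'UTR in NLS against NES mock reversed within JL1024, from -0.05 to 0.90, where each NLS library had 1 tag and each NES library 0. WEE1 introns in the cytoplasm reversed to -0.0179, and the WEE1 balance there to 0.358, without the highest intron peak. That version, and the one without libraries under 2000 tags, were chosen after seeing the data; the causes of the other changes were not tested.

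Whether replicate numbers pair the libraries was not settled: deviations of same-numbered sums correlated at -0.33 to 0.16 over 18 pairs (2000 sums). Nuclear and cytoplasmic arsenite libraries of the same number correlated at 0.14, 0.05 and 0.16, and those of different numbers at -0.17 to 0.03. In mock cells the same-numbered ones correlated at -0.04, 0.08 and -0.03, within the range of the others (-0.13 to 0.12). With the replicate number as a block the called sums numbered 6, 2, 3, 6 and 4 (the order of the leave-out counts of sums), the peaks 12, 0, 4 and 2 and the balances 3, 0, 2 and 3, the same counts as without it, and 0 in each enriched comparison.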
